A study of Rattus norvegicus with 6 samples.

Results

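The Hippo pathway was followed in cortical neural progenitors of the rat through 10 named genes: the coactivators *Yap1* and *Wwtr1*, the DNA-binding factors *Tead1*, *Tead2*, *Tead3* and *Tead4*, the kinases *Lats1* and *Lats2*, and the secreted proteins *Ctgf* and *Cyr61*. The genes were chosen by symbol, and 9 of the 10 are among the 17337 gene names of the deposited RNA-seq tables. *Tead4* was not analysed here. The cells were untreated, came from the cortex of Sprague Dawley rat embryos of either sex at embryonic day 14, were grown with 20 ng/ml bFGF and 20 ng/ml EGF, and were taken after passage 2. PolyA-selected RNA of 2 biological replicates, A and B, was sequenced as 2 technical libraries each, named A1, A2, B1 and B2. The cultures were not sorted, so each value is an average over all cells present.

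In the Hippo pathway, a kinase chain that ends in Lats1 and Lats2 phosphorylates Yap1 and its paralog Taz, the product of *Wwtr1*, and keeps them out of the nucleus. When the kinases are inactive, for example in spread cells on a stiff matrix or in growing tissue, Yap1 and Taz enter the nucleus and bind DNA through Tead proteins, which turns on genes such as *Ctgf* and *Cyr61*. In the developing cortex the pathway is known for its part in progenitor proliferation, and it is also active in fibroblasts and other mesenchymal cells. The data measure mRNA, and neither the phosphorylation nor the location of Yap1 and Taz was measured.

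The sequences before the start sites are shown for the genes in which a Tead motif was found, because *Ctgf* and *Cyr61* are read as outputs of Tead binding. RefSeq start regions of the GRCr8 assembly were given for 6 of the members (*Yap1*, *Wwtr1*, *Tead3*, *Ctgf*, *Cyr61* and *Lats1*), with *Ctgf* listed there as *Ccn2* and *Cyr61* as *Ccn1*. The 250 bases before the start were searched on both strands for GGAATG, the core of the Tead site, and for ACATTCC, whose reverse complement begins with GGAATG, so that each match of the longer motif is also a match of the core. Capitals mark the matches, and each sequence is written 5′ to 3′ along the strand of its gene, all 3 of which lie on the minus strand.
*Ctgf*, chr1:22624615-22624864: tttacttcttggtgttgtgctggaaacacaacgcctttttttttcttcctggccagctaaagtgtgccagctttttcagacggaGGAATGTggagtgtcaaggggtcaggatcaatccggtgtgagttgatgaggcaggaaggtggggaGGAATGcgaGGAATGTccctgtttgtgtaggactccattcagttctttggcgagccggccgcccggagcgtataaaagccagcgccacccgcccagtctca
*Cyr61*, chr2:237225690-237225939: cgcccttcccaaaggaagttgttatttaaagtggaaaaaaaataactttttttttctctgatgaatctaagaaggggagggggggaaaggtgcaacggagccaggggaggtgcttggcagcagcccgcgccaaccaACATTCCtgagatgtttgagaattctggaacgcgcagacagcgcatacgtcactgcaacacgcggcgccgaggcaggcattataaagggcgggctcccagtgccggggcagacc
*Yap1*, chr8:13451438-13451687: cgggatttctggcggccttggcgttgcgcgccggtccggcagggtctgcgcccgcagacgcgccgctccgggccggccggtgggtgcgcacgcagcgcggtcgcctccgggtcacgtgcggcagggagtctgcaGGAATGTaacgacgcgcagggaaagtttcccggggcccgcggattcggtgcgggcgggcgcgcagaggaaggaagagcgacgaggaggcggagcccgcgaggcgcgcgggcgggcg

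*Ctgf* held 3 matches of GGAATG, which begin 166, 101 and 92 bases before the start, and those at 166 and 92 extend to the longer motif. *Cyr61* and *Yap1* held 1 match each, both of the longer motif, which begins 114 bases before the start of *Cyr61* and 116 bases before that of *Yap1*. The windows of *Wwtr1*, *Tead3* and *Lats1* held none. Of 33469 windows of the same length in RefSeq, 12.1% held GGAATG, 3.52% held ACATTCC, and 27 windows held 3 or more matches of GGAATG. *Ctgf* and *Cyr61* also held TATAAA on the gene strand, beginning 31 and 34 bases before the start, a motif found in 8.06% of the windows, and none of the other 4 members did. The bases G and C made up 53.2% and 54.0% of the windows of *Ctgf* and *Cyr61* and between 66.4% and 76.0% of those of the other 4 members, while the median over all windows was 51.2%. Distances are counted from RefSeq starts. The paper reports that many starts measured in these cells differ from the RefSeq starts of rn6. The measured starts of the members were not analysed here. A match of letters is a description of the sequence, and binding of Tead proteins was not measured.

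**Figure D1:**
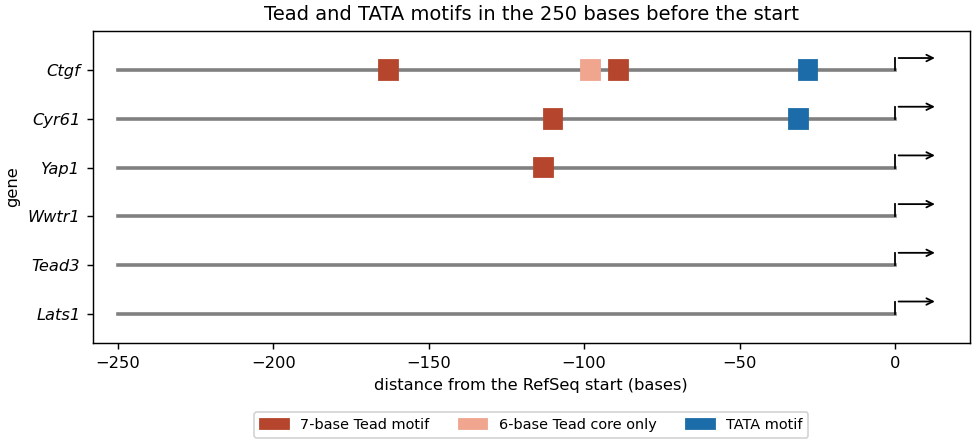
Position of motifs in the 250 bases before the RefSeq start of 6 members (horizontal axis: distance from the start in bases; one line per gene; the arrow marks the start). Dark red boxes are ACATTCC on either strand, the light red box is GGAATG alone, and blue boxes are TATAAA on the gene strand; *Ctgf* holds 3 Tead motifs, *Cyr61* and *Yap1* hold 1 each, and the other genes hold none.

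The libraries and the cells were examined before the members. The mean read depth that corresponds to 1 FPKM, a measure of sequencing depth, was 22.7 to 24.4 in A1, A2 and B1 and 6.83 in B2. All 10 markers of neural progenitors had a mean of at least 1 FPKM, and *Sox2* was at 356 to 592 FPKM in the libraries. Markers of mesenchymal and meningeal cells were present too, with *Col1a1* at 157 to 169 FPKM in replicate A and at 685 and 785 FPKM in replicate B. The endothelial markers ranged up to 2.09 FPKM for *Flt1*, and the microglial markers ranged up to 5.68 FPKM for *Cd68*, with the other 5 at 1.20 FPKM (*Aif1* in B2) or less. In bulk RNA, fewer cells of a type and less RNA per cell cannot be told apart.

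mRNA level is given as FPKM, fragments scaled to transcript length and library depth, so levels can be compared between genes. Each replicate enters as the average of its technical libraries, and errors are SDs of the 2 replicate values. There is 1 condition, so no test between groups was made. The difference between A and B is 1 difference between untreated cultures, which cannot measure how far levels vary in general. The makeup of the cultures and differences between libraries were not separated from it. A gene was counted as differing between the cultures where its mean was 1 FPKM or more, B and A were 1 or more apart on the log2(FPKM + 1) scale, and each library of one culture lay above both libraries of the other. This scale makes the differences of weakly expressed genes look smaller. The mean was 1 FPKM or more for 10481 genes, of which 4.58% were counted higher in B and 1.57% lower in B. All 9 members were at 1 FPKM or more in every library. *Wwtr1*, *Ctgf* and *Cyr61* were counted higher in B, 3 of 9 members, and 0 members were counted lower.

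*Yap1*, the coactivator at the end of the pathway, lies at 6135542 to 6203579 of chromosome 8 in rn6 (minus strand), the build of all gene positions given here. Its level was 6.68 FPKM in A1 and 5.59 FPKM in A2, against 8.97 FPKM in B1 and 12.2 FPKM in B2. Both libraries of B lay above both of A, with a mean of 8.36 ± 3.15 FPKM (SD, n = 2) and a difference of 0.69 on the log2(FPKM + 1) scale, which did not reach the size that was counted.

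*Wwtr1*, which encodes the coactivator Taz, lies at 147577149 to 147693033 of chromosome 2 (minus strand). It was at 5.16 FPKM in A1 and 5.03 FPKM in A2, against 12.7 FPKM in B1 and 19.9 FPKM in B2. The libraries of A were close to each other, those of B were 2.49 and 3.91 times the mean of A, and the groups did not overlap. The mean was 10.7 ± 7.94 FPKM (SD, n = 2), and the log2 difference of 1.48 was larger in size than that of 97.5% of the 10481 genes.

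The order of the coactivators changed between the cultures. The ratio of *Wwtr1* to *Yap1* FPKM was 0.772 in A1 and 0.899 in A2, and 1.42 in B1 and 1.63 in B2. *Yap1* was thus the higher of the pair in both libraries of A, and *Wwtr1* in both libraries of B. On the scale of log2(FPKM + 1) the ratio was -0.22 in A and 0.56 in B, with a mean of 0.17 ± 0.56 (SD, n = 2) whose SD is larger than its size.

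*Tead2* was the most abundant member by mean level. Tead proteins carry the DNA-binding TEA domain, and Tead2 is known for its high expression in early neural tissue. *Tead2*, at 101214593 to 101230477 of chromosome 1 (plus strand), had 115 FPKM in A1 and 86.6 FPKM in A2, and 117 FPKM in B1 and 80.9 FPKM in B2. The libraries of A and B overlapped, and the mean of 99.8 ± 1.20 FPKM (SD, n = 2) has a spread over replicates that is smaller than the gap between technical libraries of either replicate. It ranked 1068 among the 17337 gene names.

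*Tead3*, at 7911562 to 7930949 of chromosome 20 (minus strand), had 31.5 FPKM in A1 and 27.7 FPKM in A2, and 32.6 FPKM in B1 and 24.5 FPKM in B2. Its mean was 29.1 ± 0.736 FPKM (SD, n = 2), and its libraries overlapped as well. *Tead1*, at 177495782 to 177706863 of chromosome 1 (plus strand), had 3.62, 3.90, 3.45 and 4.69 FPKM in A1, A2, B1 and B2, the lowest level of the 9 members in each library. The log2 differences between B and A were -0.03 for *Tead2*, -0.06 for *Tead3* and 0.08 for *Tead1*.

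Of the summed FPKM of these 3 Tead genes, *Tead2* made up 76.6% in A1 and 73.3% in A2, and 76.5% in B1 and 73.5% in B2. The share of *Tead3* was 21.01% to 23.4% and that of *Tead1* 2.25% to 4.26%. The technical libraries of a culture differed more in these shares than the cultures did, and *Tead4* is not included. The summed Tead level was 134 FPKM in A and 132 FPKM in B, while *Yap1* and *Wwtr1* together had 11.2 FPKM in A and 26.9 FPKM in B. The ratio of the Tead sum to the sum of the coactivators was 12.7 in A1 and 11.1 in A2, and 7.06 in B1 and 3.43 in B2, with no overlap between the cultures.

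**Figure D2:**
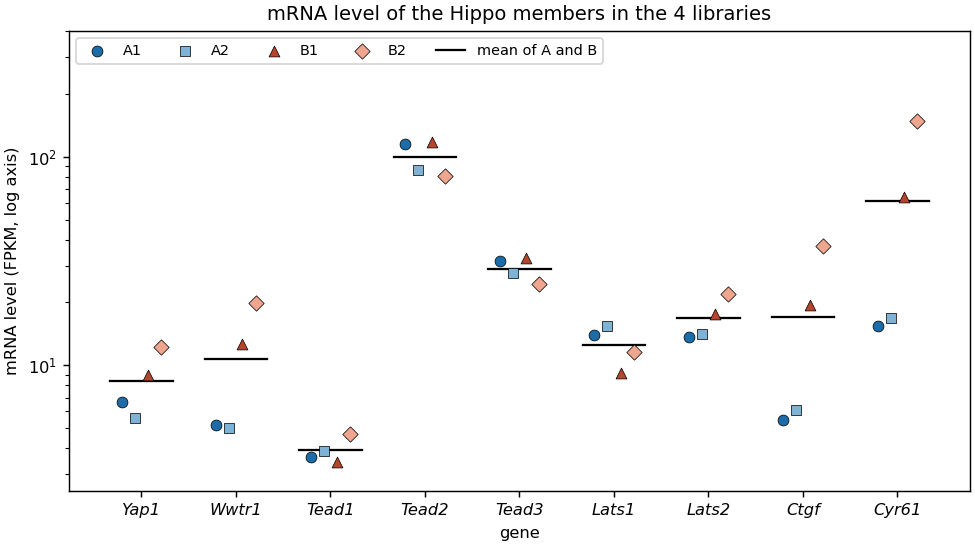
mRNA level in FPKM on a log axis for the 9 members (horizontal axis), with one point per library and a bar at the mean over replicates A and B. *Tead2* lies between 80.9 and 117 FPKM in every library, while *Ctgf*, *Cyr61* and *Wwtr1* are higher in both libraries of B than in both of A.

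*Lats1* and *Lats2* encode the kinases that act directly on Yap1 and Taz, and *Lats2* is itself known as a gene that Yap1 turns on. *Lats1*, at 1784078 to 1817310 of chromosome 1 (plus strand), had 13.9 FPKM in A1 and 15.4 FPKM in A2, and 9.23 FPKM in B1 and 11.5 FPKM in B2. It was the only member that was lower in both libraries of B than in both of A, by a log2 difference of -0.46. *Lats2*, at 37943609 to 37983882 of chromosome 15 (minus strand), had 13.6, 14.0, 17.7 and 22.04 FPKM in A1, A2, B1 and B2, a log2 difference of 0.48 with B higher. Neither reached the size that was counted.

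The kinases were near equal in A and apart in B. The ratio of *Lats2* to *Lats1* FPKM was 0.980 in A1 and 0.914 in A2, and 1.92 in B1 and 1.91 in B2. The technical libraries of B gave nearly the same ratio although their depth differed. On the scale of log2(FPKM + 1) it was -0.07 in A and 0.87 in B, a mean of 0.40 ± 0.67 (SD, n = 2).

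*Ctgf* and *Cyr61* encode secreted matrix proteins of the CCN family, and both are widely used as readouts of Yap1 and Taz. *Ctgf*, at 21851658 to 21854773 of chromosome 1 (minus strand), had 5.48 FPKM in A1 and 6.13 FPKM in A2, and 19.5 FPKM in B1 and 37.2 FPKM in B2. The libraries of B were 3.36 and 6.41 times the mean of A. The mean was 17.1 ± 15.9 FPKM (SD, n = 2), and the log2 difference was 2.04.

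*Cyr61*, at 251529354 to 251532312 of chromosome 2 (minus strand), had 15.4 FPKM in A1 and 16.8 FPKM in A2, and 63.9 FPKM in B1 and 148 FPKM in B2. The libraries of A were alike, B1 was 3.97 times and B2 9.20 times the mean of A, and the libraries of B were themselves 2.32-fold apart. The log2 difference of 2.53 was the largest among the 9 members and larger in size than that of 99.8% of the 10481 genes, against 99.4% for *Ctgf*. The mean was 61.0 ± 63.6 FPKM (SD, n = 2), and 39.98 FPKM without B2. *Cyr61* was above *Ctgf* in all 4 libraries, at 2.81 and 2.74 times its level in A1 and A2 and at 3.27 and 3.98 times in B1 and B2.

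**Figure D3:**
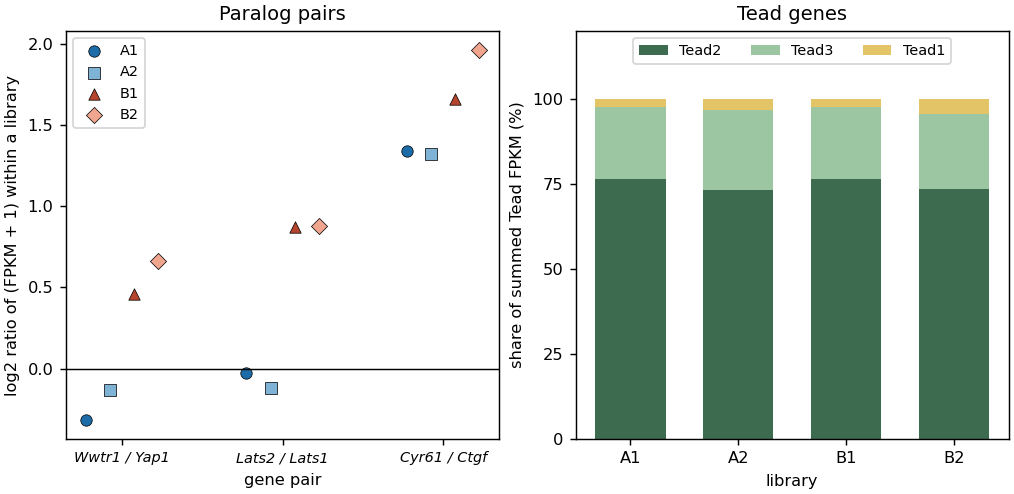
Left, log2 ratio of (FPKM + 1) within each library for the pairs *Wwtr1* and *Yap1*, *Lats2* and *Lats1*, and *Cyr61* and *Ctgf*, with one point per library; the first 2 pairs are below 0 in A and above 0 in B. Right, share of *Tead1*, *Tead2* and *Tead3* in their summed FPKM in percent, one bar per library, with *Tead2* at 73.3% to 76.6%.

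The lowest depth was in B2, which also had the highest level of *Yap1*, *Wwtr1*, *Ctgf*, *Cyr61*, *Lats2* and *Tead1*. On the log2(FPKM + 1) scale *Cyr61* was 1.20 higher in B2 than in B1, and 2.02% of the 10481 genes were higher in B2 by 1 or more. No other member reached this size, with *Ctgf* at 0.90 and *Wwtr1* at 0.61. Without B2, the same 3 members were counted, and B1 alone was above A by 1.92 for *Cyr61*, 1.59 for *Ctgf* and 1.17 for *Wwtr1*. Members had a mean read depth per base of 32.0 or more in B2 and of 83.9 or more in the other libraries. Leaving the size of the difference aside, 5 members (*Yap1*, *Wwtr1*, *Ctgf*, *Cyr61* and *Lats2*) were higher in B without overlap, as were 28.1% of the 10481 genes, and 1 (*Lats1*) was lower, as were 32.0%. The other 3 members, the Tead genes, overlapped between A and B.

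The culture with more *Wwtr1*, *Ctgf* and *Cyr61* mRNA also had more mRNA of mesenchymal and meningeal markers. Of 12 such markers, 10 were counted higher in B (*Col1a1*, *Col1a2*, *Col3a1*, *Dcn*, *Lum*, *Postn*, *Acta2*, *Foxc1*, *Foxc2* and *Twist1*) and 0 lower, against 4.58% and 1.57% of all genes. Their median difference was 1.81 on the log2 scale, and 11 were higher in B without overlap, against 28.1% of all genes. Their summed level was 1426 FPKM in A1 and 1512 FPKM in A2, and 3390 FPKM in B1 and 4663 FPKM in B2. *Dcn*, which encodes the matrix proteoglycan decorin, was at 41.8 and 42.8 FPKM in A and at 207 and 217 FPKM in B. *Foxc1*, a transcription factor of the meninges, was at 14.2 and 14.1 FPKM in A, 29.4 in B1 and 115 in B2, higher in B2 than in B1 as *Cyr61* was. *Tagln* was not counted, with 695 and 793 FPKM in A and 593 and 1391 FPKM in B, and *Pdgfrb* was the other marker that was not. Without *Tagln*, the most abundant marker of the list, the sum in B1 and B2 was 3.86 and 4.52 times the mean of A, against 2.31 and 3.18 times with it. No defining marker of the list was at 0 in any library.

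Markers of neural progenitors had a lower sum in B. Their sum was 18215 and 20030 FPKM in A and 7500 and 6484 FPKM in B, most of it from *Fabp7*. Relative to the mean of A, the sum was 0.392 in B1 and 0.339 in B2, and without *Fabp7* it was 0.679 and 0.691. Of the 10 markers, 2 were counted lower in B (*Fabp7* and the Notch target *Hes5*) and 0 higher, against 1.57% and 4.58% of all genes. Without regard to size, 6 were lower in B without overlap and 0 higher, against 32.0% and 28.1% of all genes, and the median log2 difference was -0.36. *Sox2* had 575 FPKM in A and 381 FPKM in B and was not counted. *Nes*, *Slc1a3* and *Prom1*, 3 of the 10, had a higher mean in B, at 1.15, 1.05 and 1.29 times A, with overlapping libraries. The part of the makeup of the cultures in the levels of *Wwtr1*, *Ctgf* and *Cyr61* was not tested.

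**Figure D4:**
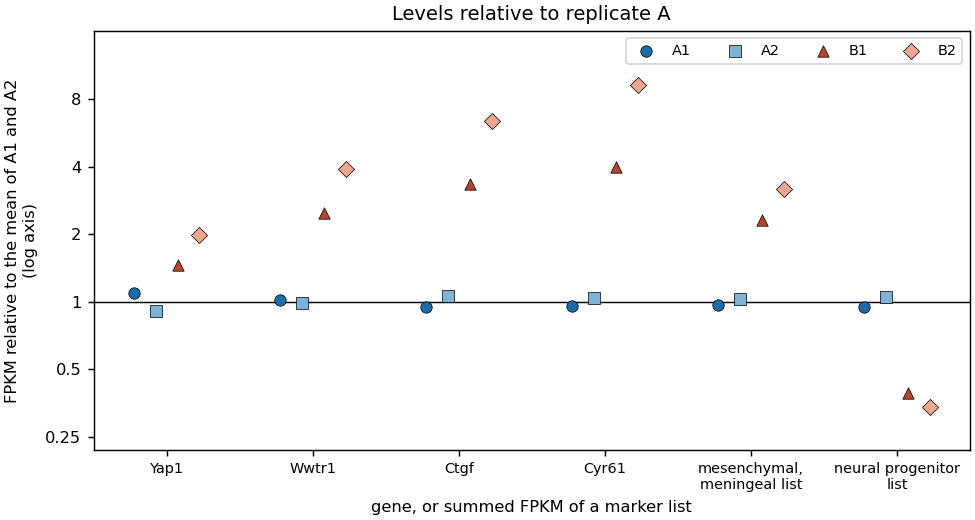
FPKM relative to the mean of A1 and A2 on a log axis, for 4 members and for the summed FPKM of 2 marker lists, with one point per library. *Cyr61* reaches 9.20 in B2 and *Ctgf* 6.41. In B1 and B2 the mesenchymal and meningeal list is at 2.31 and 3.18, and the neural progenitor list at 0.392 and 0.339. By mean level *Tagln* and *Fabp7* are the most abundant genes of these lists, although *Col3a1*, *Col1a1* and *Col1a2* are above *Tagln* in B1.

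The rest of the pathway was described through lists of other Hippo genes. The median log2 difference between B and A over all 10481 genes was -0.03. Among 12 kinases, scaffolds and their activators listed in the tables, 1 was counted higher in B and 0 lower, near the 4.58% and 1.57% of all genes, and the median difference was 0.10. Without regard to size, 4 were higher in B without overlap and 2 lower, against 28.1% and 32.0% of all genes. The gene counted was *Frmd6*, a FERM domain protein that acts upstream of the kinase chain, with 9.59 and 9.54 FPKM in A and 20.6 and 21.4 FPKM in B. The most abundant was *Map4k4*, a kinase that can act on Lats1 and Lats2, with 173 and 164 FPKM in A and 124 and 113 FPKM in B. *Nf2*, which encodes the scaffold merlin, had 28.2 ± 0.631 FPKM (SD, n = 2), and *Taok2*, an upstream kinase, 24.6 ± 3.65 FPKM (SD, n = 2).

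Of 12 junction and other upstream regulators listed, 9 had a mean of at least 1 FPKM, and their median difference was -0.02. The protocadherin gene *Fat3* was counted lower in B, with 3.72 and 4.41 FPKM in A and 0.926 and 1.55 FPKM in B. It was the only gene of the 9 counted lower and 0 were counted higher, against 1.57% and 4.58% of all genes. Of the 9, 3 were higher in B without overlap and 2 lower, against 28.1% and 32.0% of all genes. The highest were *Amotl2*, a junction protein that binds Yap1, with 35.0 ± 6.39 FPKM, *Fat1* with 30.3 ± 3.77 FPKM and *Dchs1*, whose product is a ligand of Fat4, with 21.9 ± 1.13 FPKM (SD, n = 2 each). Vgll proteins compete with Yap1 for Tead, and of the genes listed, *Vgll4* had 149 ± 19.1 FPKM and *Vgll2* 11.8 ± 1.17 FPKM (SD, n = 2 each). *Vgll4* was thus above the sum of *Yap1* and *Wwtr1* in every library, with 116 to 171 FPKM. Neither Vgll gene was counted as differing.

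Genes used elsewhere as readouts of Yap1 and Taz differed among themselves. Of 17 such genes listed beside the members, 15 had a mean of at least 1 FPKM, 4 were counted higher in B and 0 lower, against 4.58% and 1.57% of all genes, and the median difference was 0.36. Without regard to size, 8 of the 15 were higher in B without overlap and 5 lower, against 28.1% and 32.0% of all genes. *Igfbp3*, which encodes a binding protein of insulin-like growth factors, had 17.1 and 18.7 FPKM in A and 104 and 64.3 FPKM in B. *Ccdc80*, a matrix protein gene, had 10.07 and 10.004 FPKM in A and 32.0 and 43.5 FPKM in B. *Myof*, the gene of the membrane repair protein myoferlin, had 1.62 and 1.34 FPKM in A and 6.499 and 6.87 FPKM in B, and the cyclin gene *Ccnd1* had 6.64 and 6.84 FPKM in A and 19.8 and 21.3 FPKM in B. Unlike *Cyr61*, *Igfbp3* was higher in B1 than in B2.

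None of the 3 most abundant readout genes was counted as differing. *F3*, which encodes tissue factor, had 146 and 157 FPKM in A and 86.2 and 106 FPKM in B, a log2 difference of -0.66. *Fjx1* had 115 and 124 FPKM in A and 105 and 109 FPKM in B, and *Gadd45a* had 47.3 and 49.4 FPKM in A and 83.9 and 65.4 FPKM in B. *Ankrd1*, one of the most used readouts, was below 1 FPKM in each library, at 0.22 and 0.21 in A and 0.56 and 0.75 in B. The list shares 2 genes with the upstream list and 0 with the mesenchymal list, which follows from how the lists were chosen. The part of the makeup of the cultures in the levels of the readout genes was not tested.

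**Figure D5:**
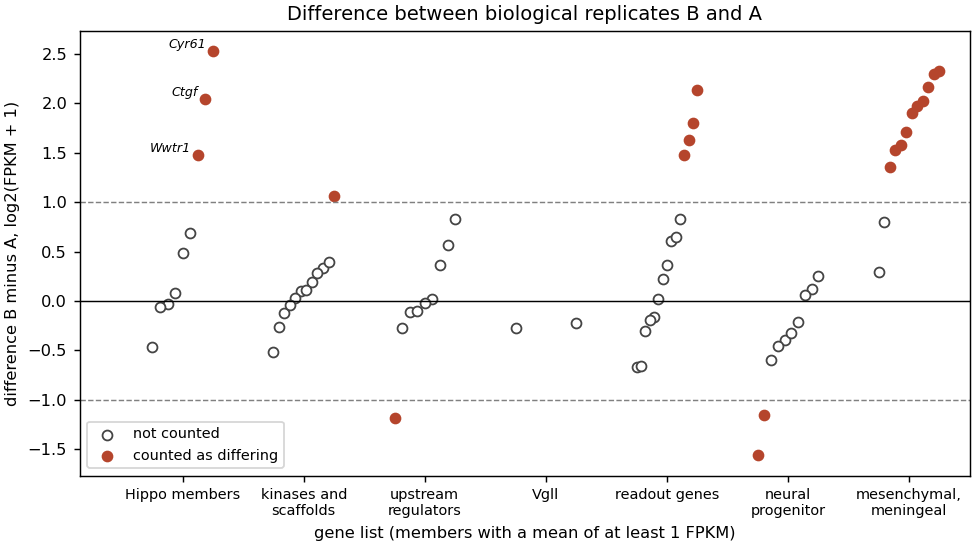
Difference between replicates B and A on the log2(FPKM + 1) scale (vertical axis) for the 9 members and for 6 gene lists, one point per gene with a mean of at least 1 FPKM, ordered by value within each list. Dashed lines mark a difference of 1 in either direction and filled points are genes counted as differing, which include *Wwtr1*, *Ctgf* and *Cyr61* and 10 mesenchymal and meningeal markers.

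In order of mean level the members were *Tead2*, *Cyr61*, *Tead3*, *Ctgf*, *Lats2*, *Lats1*, *Wwtr1*, *Yap1* and *Tead1*. Of the 8 neighbouring pairs in this order, 7 had overlapping library values, and only *Yap1* lay above *Tead1* without overlap. The order differed between the cultures. In A it was *Tead2*, *Tead3*, *Cyr61*, *Lats1*, *Lats2*, *Yap1*, *Ctgf*, *Wwtr1* and *Tead1*, and in B it was *Cyr61*, *Tead2*, *Tead3*, *Ctgf*, *Lats2*, *Wwtr1*, *Yap1*, *Lats1* and *Tead1*. These are orders of culture means, and single libraries departed from them. *Ctgf* was above *Yap1* in A2 and above *Tead3* in B2. In B1, *Tead2* was above *Cyr61* and *Lats1* above *Yap1*.

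The genes with the most similar levels over the 4 libraries were found by the Euclidean distance of log2(FPKM + 1) among all 17337 gene names. For *Yap1* they were *Irf1* at a distance of 0.205, *Ogfrl1* at 0.223 and *Gsdmd* at 0.238. For *Tead2* they were *Ehmt2*, *Rab24* and *Gramd1a*, at 0.155 to 0.215, which were lower in A2 than in A1 and in B2 than in B1, as *Tead2* was. For *Ctgf* they were *Aebp1* at 0.325, *Eya2* at 0.409 and *S1pr3* at 0.419. For *Cyr61* they were *Osr1* at 0.417, with 17.1, 17.8, 53.8 and 120 FPKM in A1, A2, B1 and B2, then *Anxa1* at 0.623 and *Msx1* at 0.702. The 4 libraries form 2 technical pairs, so this likeness is a description of these libraries.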

How the data were processed

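PolyA RNA-seq of 2 biological replicates with 2 technical libraries each was used, grouped by the sample labels. Start-seq samples (2) were not analysed here. Alignment to rn6 by the authors used STAR, and the submitters' processing notes also name cutadapt, HISAT and StringTie, with versions not given in the sources used here. FPKM, scaled by the authors to transcript length and library depth, was used as deposited. The methods credit FPKM to R packages, while the tables have the layout of StringTie, so the program behind the values is uncertain. TPM, also deposited by the authors, served as an alternative unit. The deposited coverage, the mean read depth per base of a gene, served as a measure of depth; total read numbers were not used. Whether counting used strand is not given in the sources used here.

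FPKM was summed over rows of a gene name, technical libraries were averaged within a replicate, and differences were taken on log2(FPKM + 1). No p-value was computed, and n = 2 cultures limits the precision of each mean. Markers of neurons, astrocytes, endothelial cells and microglia were summed as well. Besides the members, the genes named are the 3 highest of each list, those counted as differing and the 3 nearest genes, plus single genes chosen after their values were seen: *Ankrd1*, *Pdgfrb*, *Nes*, *Slc1a3* and *Prom1*. Listed genes without a name in the tables, such as *Amot*, were not analysed here. The members and lists were chosen with earlier results of these data known. Motifs were searched in RefSeq sequences (GRCr8), found for 6 of 10 members. Alternatives were TPM, another pseudocount, thresholds, scaling and libraries left out. The sums of 2 marker lists without their most abundant gene were added after the data were seen. Python 3.11.15, pandas 2.3.3 and numpy 2.4.6 were used.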

Additional observations from a re-analysis of the deposited data

Results flagged for a closer look

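Among 19 values examined for 1 library far from the others, 1 stood out, the depth of B2, with 6.83 reads per base at 1 FPKM against 22.7 to 24.4 in the others. Chance marks about 1 in 20 such values in independent samples, and these libraries form technical pairs. None of the 9 members had such a library, although *Cyr61* and *Ctgf* were highest in B2.

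The order within a pair of paralogs was opposite in the cultures for *Wwtr1* with *Yap1* and for *Lats2* with *Lats1*. The log2 ratio of *Wwtr1* to *Yap1* was 0.79 higher in B than in A, below 0 in both libraries of A and above 0 in both of B. The log2 ratio of *Lats2* to *Lats1* was 0.95 higher in B than in A, with the same signs. These differences were not tested, because each culture is 1 biological replicate.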

How the results depend on the processing

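*Wwtr1*, *Ctgf* and *Cyr61* were counted as higher in B under each of the 10 alternatives, and *Yap1* joined them at a minimum difference of 0.58. None of 27 alternatives in unit, pseudocount or scaling moved the difference of a member by more than the spread between technical libraries. Another 36 left out 1 technical library, which cannot exceed that spread by construction. The number of all genes counted, 645, became 1732 (978 higher in B, 754 lower) at a minimum difference of 0.58 and 329 (239 and 90) with the minimum mean raised to 10 FPKM, and with a pseudocount of 0.1 the number lower in B became 279 in place of 165. Members at 10 FPKM or more in every library numbered 4. Of 45 alternatives for the mean levels, 9 moved a value by more than its SD, 6 of them through the change of unit to TPM and 3 for the Tead genes without B2, where *Tead2* had a mean of 109 FPKM. The mean of *Cyr61* became 39.98 FPKM in place of 61.0 without B2, within its wide SD. Without B2, the Tead shares became 75.7% for *Tead2* and 2.55% for *Tead1*. With 1 replicate left out, the log2 ratio of *Wwtr1* to *Yap1* ranged from -0.22 to 0.56 and that of *Lats2* to *Lats1* from -0.074 to 0.87, so their direction rests on the culture. Leaving out a replicate cannot move a mean of 2 by more than their SD and does not test its stability. Of these changes, the cause was not tested. No paired analysis was possible because the libraries belong to 1 condition. The low depth of B2 limits the precision of low values there.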

Other observations

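Neuronal markers had a summed level of 165 and 189 FPKM in A and 145 and 164 FPKM in B, with *Tubb3* highest at 118 ± 9.88 FPKM, followed by *Stmn2* at 21.4 ± 1.46 FPKM and *Dcx* at 9.70 ± 2.79 FPKM (SD, n = 2 each). Of the 8 markers, 6 reached the minimum mean of 1 FPKM for counting, and 0 were counted as differing. Of these 6, 4 were lower in B without overlap, as were 32.0% of the 10481 genes, and the median log2 difference was -0.45, against -0.03 over all of these genes. Of 4 astrocyte markers, *S100b* was counted lower in B, with 365 and 403 FPKM in A and 203 and 149 FPKM in B. No other was counted, against 1.57% lower and 4.58% higher among all genes. Without regard to size, 1 of the 4 was higher in B without overlap and 1 lower, against 28.1% and 32.0% of all genes. The median log2 difference of the list was 0.16. *Gfap* was at 502 and 460 FPKM in A, 419 in B1 and 904 in B2, and *Aqp4* at 80.8 ± 7.15 FPKM (SD, n = 2).

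Endothelial markers were low but higher in B2 than in the other libraries. They summed to 1.02 and 0.876 FPKM in A and to 1.82 and 4.46 FPKM in B, and each of the 6 had a mean below 1 FPKM. *Flt1*, *Cdh5* and *Pecam1* were the highest of them. Of 6 microglial markers, *Cd68* alone had a mean of at least 1 FPKM, at 3.82 ± 1.30 FPKM (SD, n = 2), and *Aif1* and *Csf1r* followed at means of 0.719 and 0.0821 FPKM. *Cd68*, the one marker of both lists above the minimum for counting, was not counted as differing and was lower in B without overlap, as were 32.0% of all genes.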
